A study of Rattus norvegicus and Homo sapiens with 12 samples.

Results

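The integrated stress response genes described here are 42 genes in 6 classes, followed in the human prostate cancer cell line DU145 before and after selection by mesenchymal stem cells (MSCs). They comprise ATF4 and 6 stress factors linked to it, 8 enzymes of amino acid synthesis, 5 amino acid transporters, the tRNA exporter XPOT, 19 aminoacyl-tRNA synthetases of the cytosol and 2 scaffold proteins of the complex that holds several of these synthetases. The genes were chosen by name and matched by Ensembl identifier, and all 42 were found among the 60107 genes listed and passed the filter on low counts, which left 14316 tested genes. F0 is the parental DU145 population, labelled Parental. F2 is the population labelled MSC Educated, recovered after repeated culture in conditioned medium (CM) of human MSCs from a commercial source. Each exposure to CM lasted 72 h and was followed by 48 h of recovery in complete medium. The sources disagree on the number of exposures, which is 2 by the sample labels and 3 by the series description. Both populations were grown in DMEM with 10% FBS and are otherwise unmodified. RNA of 3 samples of each population, 6 libraries in all, was read with QuantSeq, a method primed from the poly(A) tail, so that each transcript gives a single tag close to its 3′ end. The sources do not say whether the F2 samples came from separate selections, so the p-values measure the spread between these samples. DU145 comes from a brain metastasis of prostate cancer and is a cell line in culture.

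ATF4 is a transcription factor whose protein is made when kinases that sense stress phosphorylate the translation factor eIF2. It switches on genes that import and make amino acids and that charge tRNAs with them, and with its partner CHOP, encoded by DDIT3, it also switches on genes that stop growth or favor cell death. PPP1R15A, known as GADD34, brings a phosphatase to eIF2 and so ends the response, which makes the class of stress factors a mix of drivers and brakes. Since ATF4 is controlled largely by translation, the level of its own mRNA is not a measure of its protein. mRNA levels are what these libraries report.

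Counts assigned to genes lay between 15879480 and 16479239 per library. Mitochondrially encoded genes took 5.86% ± 0.145 (SD, n = 3) of these counts in F0 and 10.4% ± 0.201 in F2. Levels are in CPM, a gene's count relative to its library total after the TMM scaling of edgeR, which adjusts totals for such shifts in composition. Changes are given as log2 ratios of F2 to F0, so that a negative value is a lower level in F2. The keratin genes KRT8 and KRT18 of epithelial cells were present at 243 to 354 CPM and 468 to 566 CPM. Of 22 MSC marker genes, 6 had 0 counts in every library, among them the stromal genes SPARC, LUM, THY1, POSTN and CXCL12. The summed level of the 22 markers lay between 215 and 239 CPM in F0 and between 277 and 296 CPM in F2, of which NT5E, a surface enzyme that DU145 itself expressed, made up 158 ± 9.49 CPM and 222 ± 10.3 CPM. Of the 22 markers, 7 passed the filter on low counts, and 4 of these were called at an adjusted p under 0.05 from edgeR. That is 57.1%, against 18.2% of all tested genes. NT5E and NES were higher in F2. TAGLN (mean 32.9 CPM in F0 and 26.5 CPM in F2) and FN1 (4.88 and 3.40 CPM) were lower. The part of MSC markers in the changes below was not tested.

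Of the 42 genes, 9 differed between F2 and F0 at an adjusted p under 0.05 (edgeR's quasi-likelihood test, Benjamini-Hochberg adjustment over all tested genes), 2 higher and 7 lower in F2. That is 21.4%, against 18.2% of all tested genes (9.49% higher and 8.67% lower), a share near the background. Among the 8418 genes whose F0 mean was at least that of the lowest of the 42 genes, 23.4% were called. PPP1R15A and the glutamine transporter gene SLC1A5 rose. CHAC1, MTHFD2, PYCR1, SLC7A5, SLC3A2, RARS1 and AIMP1 fell. None of the 42 genes changed 2-fold, and the median of their log2 ratios was -0.054, against -0.0025 over all tested genes. Of the 42, 4 had all F2 libraries above all F0 libraries and 11 had all F2 libraries below, together 15 of 42, and over all tested genes these arrangements were found in 16.9% and 17.1%, together 34.0%. Scaling sets the balance of directions. With library size alone in place of TMM, 1 of the 42 genes was called higher and 20 lower, and over all genes the calls went from 1358 higher and 1241 lower to 832 higher and 2805 lower, with a median log2 ratio of -0.092.

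**Figure D1:**
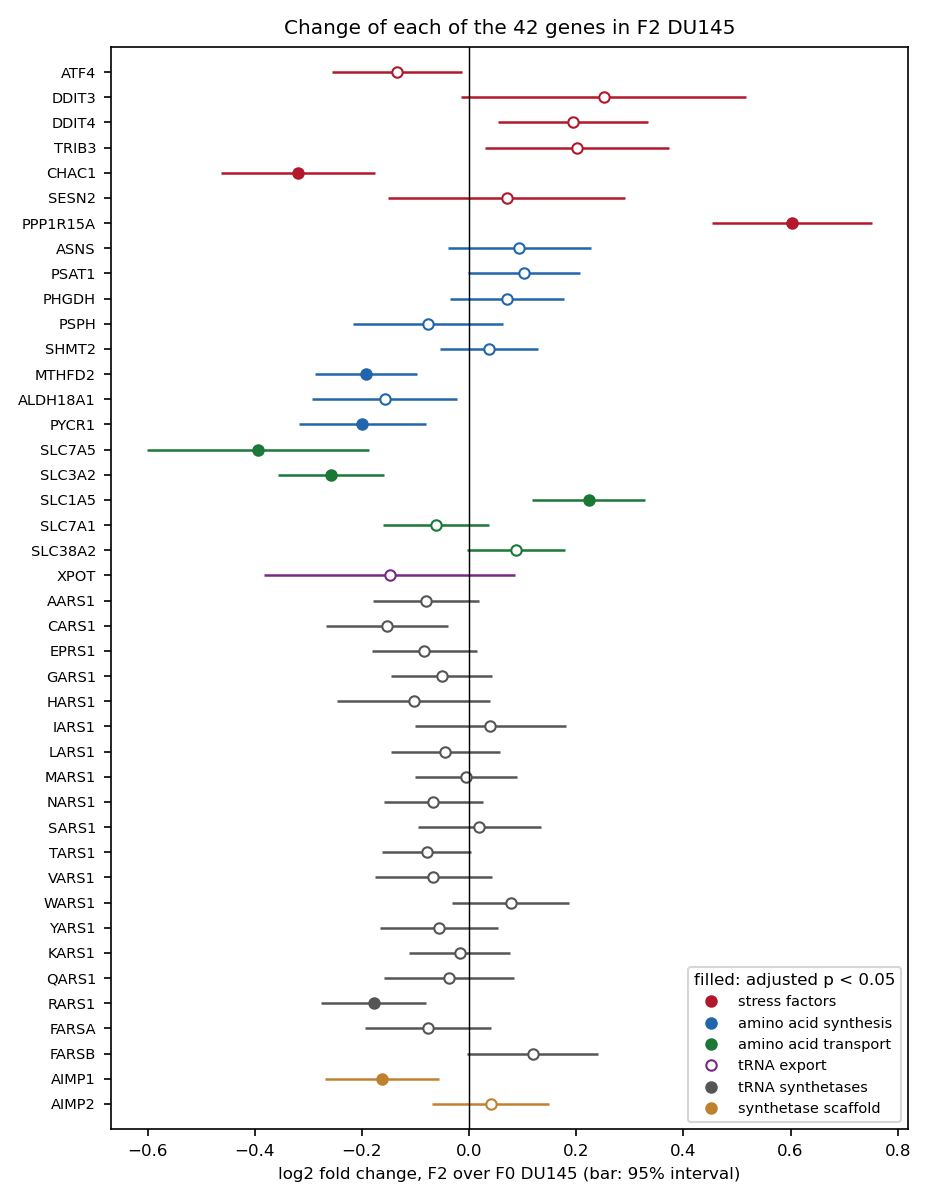
Log2 fold change of F2 over F0 DU145 (x axis) for each of the 42 genes (y axis), with 95% intervals from edgeR as bars, colors for the classes and filled points for an adjusted p under 0.05. PPP1R15A at 0.60 and SLC7A5 at -0.39 are the extremes, and the 19 synthetase genes cluster between -0.18 and 0.12.

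Among the 7 stress factors the called genes were PPP1R15A, which rose, and CHAC1, which fell (28.6% called, against 18.2% of all tested genes). The median log2 ratio of the class was 0.19. PPP1R15A (ENSG00000087074, chromosome 19, 48872392 to 48876057 in GRCh38) had 30.1, 31.6 and 30.7 CPM in the F0 libraries and 46.3, 50.5 and 43.6 CPM in the F2 libraries. The lowest F2 library was well above the highest F0 library. The log2 ratio was 0.60 (standard error 0.071, 95% interval 0.45 to 0.75, adjusted p = 5.22e-06 from edgeR), a rise of 51.9%, and the call held in all 6 fits that each left out 1 library. CHAC1, which encodes an enzyme that breaks down glutathione and is among the best known targets of ATF4 and CHOP, lies on chromosome 15 (ENSG00000128965, 40952962 to 40956519). Its levels were 36.8, 38.7 and 36.9 CPM in F0 and 30.2, 29.2 and 30.7 CPM in F2, so the populations did not overlap. The log2 ratio was -0.32 (standard error 0.069, 95% interval -0.46 to -0.17, adjusted p = 0.00277 from edgeR), and this call also held however 1 library was left out (6 of 6 fits). Of the 7 stress factors, 5 had log2 ratios above 0 and 2 below, and 5 were not past the threshold.

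ATF4 itself was not past the threshold. Its mRNA was at 505, 447 and 409 CPM in F0 and at 424, 417 and 399 CPM in F2, a log2 ratio of -0.13 (95% interval -0.26 to -0.013, adjusted p = 0.122 from edgeR). F0 replicate 3 lay within the F2 range, and without it the value was -0.20 (adjusted p = 0.0165). Without F0 replicate 1, the highest library, it was -0.051 (adjusted p = 0.537). ATF4 was also past the threshold with library size alone (-0.22, adjusted p = 0.00819), without the filter on low counts (adjusted p = 0.0365) and with the replicate number as a block (adjusted p = 0.0418), lower in F2 each time. DDIT4, known as REDD1, an inhibitor of the growth kinase mTORC1, had 38.1, 38.0 and 41.4 CPM in F0 and 45.4, 42.6 and 46.4 CPM in F2. The populations did not overlap, and at 0.19 (standard error 0.067) with an adjusted p of 0.051 the gene was just outside the threshold, and inside it with the size factors of DESeq2 (adjusted p = 0.0495) or the block (adjusted p = 0.0365). TRIB3, a pseudokinase induced by ATF4 and CHOP, was at 31.0 ± 3.68 CPM (SD, n = 3) before and 35.6 ± 1.32 CPM after selection, a log2 ratio of 0.20 (adjusted p = 0.0996 from edgeR), which became 0.30 (adjusted p = 0.0193) without F0 replicate 3 and 0.13 (adjusted p = 0.396) without F0 replicate 2. DDIT3 had 11.7, 12.4 and 8.70 CPM in F0 and 13.7, 12.1 and 13.2 CPM in F2, with a log2 ratio of 0.25 and an interval from -0.015 to 0.52, and without F0 replicate 3 it was 0.11 (adjusted p = 0.611). SESN2, a leucine sensor that restrains mTORC1, was at 16.5 ± 2.33 and 17.3 ± 0.457 CPM (log2 ratio 0.070, adjusted p = 0.704 from edgeR). The 3′ ends of DDIT3 and MARS1 overlap by 982 bases on opposite strands, and whether the counting used strand is not stated, so reads of that stretch may be shared or discarded. The F0 libraries differed among themselves more than the F2 libraries in ATF4, DDIT3, TRIB3 and SESN2. Coefficients of variation of these genes were 10.6% to 18.1% in F0 and 2.65% to 6.25% in F2. PPP1R15A went the other way, with 2.54% in F0 and 7.37% in F2. In DDIT4 (5.0% and 4.41%) and CHAC1 (2.84% and 2.59%) the populations were close.

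**Figure D2:**
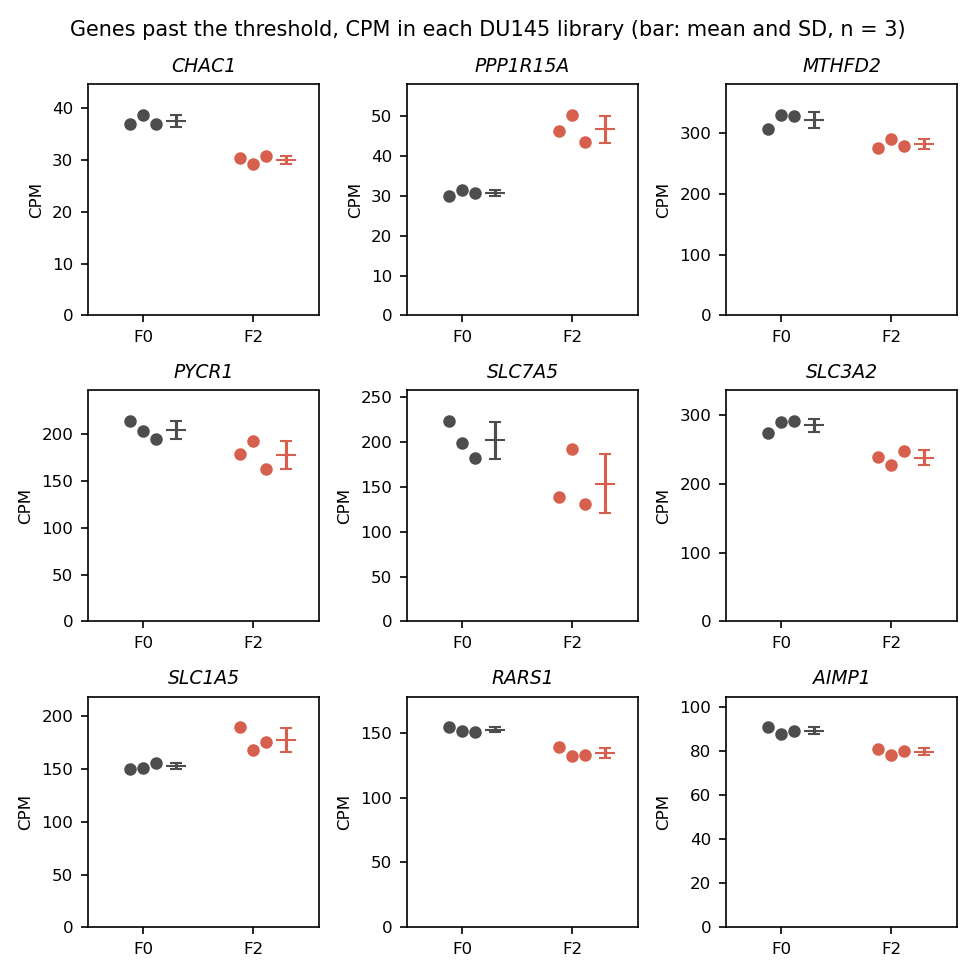
CPM (y axes, from 0) of the 9 genes past the threshold in each F0 and F2 DU145 library, with the mean and SD (n = 3) beside the points. In 8 of the 9 genes the F0 and F2 libraries do not overlap. In SLC7A5 the F2 replicate 2 at 192 CPM lies within the F0 range. The genes were picked by a test on these same libraries, so their separation is not added evidence. Over all tested genes, called or not, 34.0% have no overlap.

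In amino acid synthesis, 2 of 8 genes fell, MTHFD2 and PYCR1, and none rose (25.0% called, against 18.2% of all tested genes). The median log2 ratio of the class was -0.020. MTHFD2, the mitochondrial enzyme of the folate cycle that carries units of carbon taken from serine, is on chromosome 2 (ENSG00000065911, 74198562 to 74217565). It had 307, 331 and 329 CPM in F0 and 275, 291 and 280 CPM in F2, with no overlap. The log2 ratio was -0.19 (standard error 0.046, 95% interval -0.29 to -0.097, adjusted p = 0.00548 from edgeR), and the call was lost when F0 replicate 2 (adjusted p = 0.0558) or F2 replicate 1 (adjusted p = 0.0507) was left out. The enzymes upstream of it did not pass the threshold. PHGDH, which draws serine synthesis from glycolysis, had 0.071 (adjusted p = 0.377 from edgeR), PSAT1, the next step, 0.10 (adjusted p = 0.168) and PSPH, the last step, -0.076 (adjusted p = 0.477). SHMT2, which splits serine in the mitochondria and feeds MTHFD2, averaged 193 ± 3.08 CPM before and 198 ± 3.43 CPM after selection (log2 ratio 0.037, 95% interval -0.055 to 0.13). ASNS, the asparagine synthetase gene and a standard readout of ATF4 activity, had 106, 104 and 92.3 CPM in F0 and 110, 114 and 97.4 CPM in F2. Its populations overlapped, and the log2 ratio was 0.094 (95% interval -0.039 to 0.23, adjusted p = 0.342 from edgeR).

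The genes of proline synthesis moved apart from each other. PYCR1 (ENSG00000183010, chromosome 17, 81932384 to 81942412), which encodes a mitochondrial enzyme of the last step to proline, had 214, 203 and 195 CPM in F0 and 179, 192 and 162 CPM in F2. The highest F2 library was just under the lowest F0 library, and the log2 ratio was -0.20 (standard error 0.057, 95% interval -0.32 to -0.080, adjusted p = 0.0186 from edgeR). Omitting a library ended the call in 4 of 6 fits, without F0 replicate 1 or 2 and without F2 replicate 1 or 3 (adjusted p up to 0.124). ALDH18A1, the enzyme of the first steps, went from 57.2 ± 2.78 to 51.3 ± 3.26 CPM with overlap, a log2 ratio of -0.16 (adjusted p = 0.1 from edgeR). The PYCR1 paralog PYCR3, which catalyzes the same step, rose. It went from 24.6, 22.6 and 25.7 CPM to 34.7, 28.8 and 33.9 CPM, a log2 ratio of 0.42 (95% interval 0.24 to 0.60, adjusted p = 0.00171 from edgeR). PRODH, which breaks proline down, fell from 8.56 ± 0.169 to 5.995 ± 0.342 CPM, a log2 ratio of -0.51 (95% interval -0.79 to -0.24, adjusted p = 0.00886 from edgeR).

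On the same strand as PYCR1 lies MYADML2 (ENSG00000185105, 81939645 to 81947233), a membrane protein gene named after its values were seen, whose exons overlap those of PYCR1. MYADML2 had 0 counts in each F0 library and 103, 91 and 105 counts in the F2 libraries, or 6.59, 5.91 and 6.70 CPM. Against a floor of 3 counts per F0 library its level in F2 was at least 35.2-fold higher. MYADML2 averaged 6.40 CPM in F2, and the mean levels of PYCR1 were 204 CPM in F0 and 178 CPM in F2. Both genes are on the minus strand, so the shared stretch lies at the 5′ end of PYCR1 and the 3′ end of MYADML2. Whether reads moved between these gene models was not tested.

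**Figure D3:**
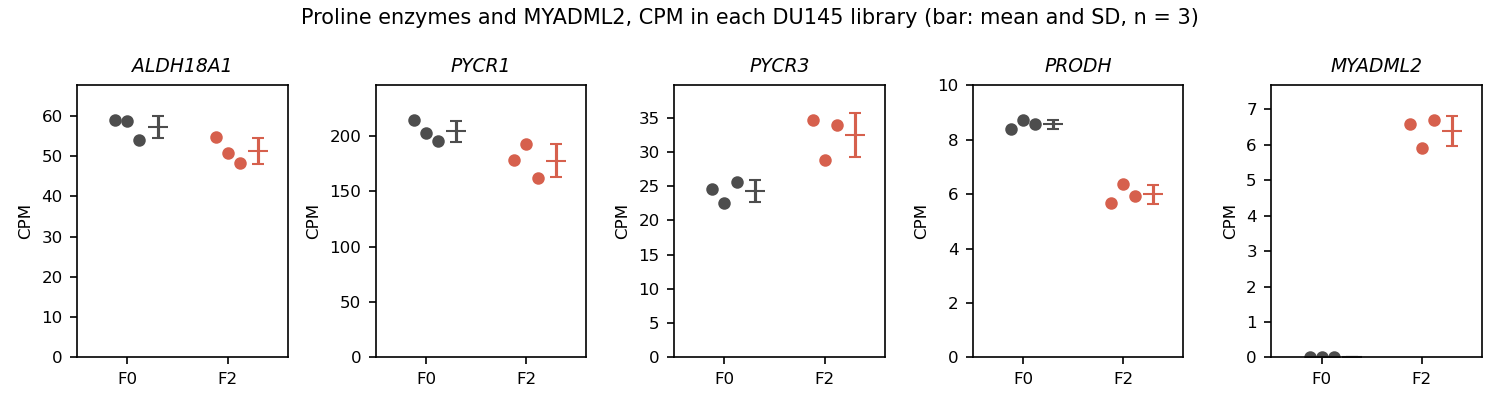
CPM (y axes, from 0) of the proline enzymes ALDH18A1, PYCR1, PYCR3 and PRODH and of MYADML2 in each F0 and F2 DU145 library, with the mean and SD (n = 3) beside the points. PYCR1 and PRODH are lower and PYCR3 is higher in F2, and MYADML2 is at 0 in all F0 libraries.

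Of the 5 transporters 3 were called (60% against 18.2% of all tested genes), with SLC7A5 and SLC3A2 lower and SLC1A5 higher in F2. The count was 2 with DESeq2 or without F2 replicate 3, and 1 without F2 replicate 1. Over all genes these settings called, in that order, 2091, 2000 and 1757, against 2599 with edgeR and all libraries. SLC7A5 and SLC3A2 encode the light and the heavy chain of LAT1, the heterodimer that brings leucine and other large neutral amino acids into the cell. SLC3A2 (ENSG00000168003, chromosome 11, 62856102 to 62888875) had 273, 289 and 292 CPM in F0 and 239, 227 and 248 CPM in F2. The populations did not overlap, and the log2 ratio of -0.26 (standard error 0.047, 95% interval -0.36 to -0.16, adjusted p = 6.68e-04 from edgeR) was called however 1 library was left out (6 of 6 fits). SLC7A5 (ENSG00000103257, chromosome 16, 87830023 to 87869488) had 224, 199 and 182 CPM in F0 and 138, 192 and 131 CPM in F2. F2 replicate 2 lay within the F0 range and far from the other two, which were below every F0 library. The log2 ratio was -0.39 (standard error 0.099, 95% interval -0.60 to -0.19, adjusted p = 0.0084 from edgeR), and DESeq2 gave -0.39 with an adjusted p of 0.193, so the call rests on the tool. It was also lost without F2 replicate 1 (adjusted p = 0.0643) or F2 replicate 3 (adjusted p = 0.059). Without F2 replicate 2 the log2 ratio was -0.58 (adjusted p = 7.35e-07 from edgeR).

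SLC1A5 (ENSG00000105281, chromosome 19, 46774883 to 46788594), which encodes the neutral amino acid exchanger ASCT2 that imports glutamine, went the other way. It had 151, 151 and 156 CPM in F0 and 190, 168 and 176 CPM in F2, with no overlap, a log2 ratio of 0.22 (standard error 0.051, 95% interval 0.12 to 0.33, adjusted p = 0.00417 from edgeR). The call was lost without F2 replicate 1 (adjusted p = 0.0514) and with library size alone (0.13, adjusted p = 0.0607). SLC38A2, a sodium-coupled glutamine and alanine transporter, had a log2 ratio of 0.088 (adjusted p = 0.183 from edgeR), and SLC7A1, a transporter of arginine and lysine, had -0.062 (adjusted p = 0.402). In both the populations did not overlap, yet the differences were small, with intervals from -0.0038 to 0.18 and from -0.16 to 0.036. Of 18 other amino acid transporter genes, 12 were tested, 2 fell and none rose (16.7% called, against 18.2% of all tested genes). These were SLC43A2, a transporter of leucine and related amino acids (20.7 ± 0.889 to 13.4 ± 1.197 CPM, log2 ratio -0.63, adjusted p = 1.12e-04 from edgeR), and SLC7A11, the cystine transporter chain that also pairs with SLC3A2 (166 ± 8.60 to 146 ± 4.77 CPM, log2 ratio -0.19, adjusted p = 0.0133, called in 3 of 6 fits with a library omitted). SLC7A6, another chain that pairs with SLC3A2, had a log2 ratio of -0.023 (adjusted p = 0.887 from edgeR).

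The tRNA synthetases were the class with the lowest share of called genes among the classes of more than 1 gene. Each attaches 1 kind of amino acid to its tRNAs, except EPRS1, which serves both glutamate and proline. Of 19 genes 1 fell and none rose (5.26% called, against 18.2% of all tested genes), the median log2 ratio was -0.056, and 15 of the 19 values were below 0. The 95% intervals of the 19 genes together spanned -0.28 to 0.24, so a change of more than 17.4% down or 18.2% up lay outside the interval of every gene. RARS1 (ENSG00000113643, chromosome 5, 168486445 to 168519299), the arginyl-tRNA synthetase gene, fell from 155, 152 and 151 CPM in F0 to 139, 132 and 133 CPM in F2. The populations did not overlap, and the log2 ratio was -0.18 (standard error 0.047, 95% interval -0.28 to -0.081, adjusted p = 0.0108 from edgeR), a call lost without F0 replicate 2 (adjusted p = 0.0514). CARS1, for cysteine, averaged 121 ± 8.18 and 108 ± 2.97 CPM with no overlap (log2 ratio -0.15, adjusted p = 0.0573 from edgeR). EPRS1, NARS1 for asparagine and TARS1 for threonine also had every F2 library below every F0 library, with log2 ratios of -0.083, -0.067 and -0.079 and adjusted p of 0.241, 0.328 and 0.186. The values above 0 belonged to FARSB (0.12, adjusted p = 0.175), WARS1 (0.078, adjusted p = 0.337), IARS1 (0.040, adjusted p = 0.736) and SARS1 (0.019, adjusted p = 0.855), all from edgeR. FARSB and FARSA encode the chains of 1 enzyme, for phenylalanine, and FARSA had a log2 ratio of -0.076 (adjusted p = 0.383).

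The other synthetase genes, AARS1, GARS1, HARS1, KARS1, LARS1, MARS1, QARS1, VARS1 and YARS1, had log2 ratios between -0.10 for HARS1 and -0.0059 for MARS1, none past the threshold. The median of the class stayed between -0.059 and -0.042 when single libraries were left out. With library size alone 11 of the 19 genes were called, all lower, with a median of -0.15, and IARS1, SARS1 and WARS1 then lay below 0 too. NARS1, at -0.067, is on chromosome 18, whose 229 tested genes had a median log2 ratio of -0.065. The median of the 19 synthetases was -0.056, and the part of the chromosome in the value of NARS1 was not tested. Of the cytosolic genes outside the class, EEF1E1, a small partner of the complex, had -0.039 (adjusted p = 0.683), and TARS3, a relative of TARS1, fell by 0.28 on the log2 scale (adjusted p = 0.0403 from edgeR), a call lost however 1 library was left out and with DESeq2 (adjusted p = 0.0944).

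AIMP1 and AIMP2 are scaffold proteins that hold several synthetases in a single complex, in which AIMP1 binds the arginyl-tRNA synthetase. AIMP1 (ENSG00000164022, chromosome 4, 106315544 to 106349226) had 91.0, 87.8 and 88.8 CPM in F0 and 81.0, 78.1 and 79.9 CPM in F2. It fell by 0.16 on the log2 scale (standard error 0.051, 95% interval -0.27 to -0.057, adjusted p = 0.03 from edgeR) with no overlap, but the call was lost whichever library was omitted (0 of 6 fits, adjusted p 0.0619 to 0.079) and was also lost with DESeq2 (adjusted p = 0.0642). AIMP2 averaged 110 ± 3.16 CPM before and 114 ± 6.08 CPM after (log2 ratio 0.040, adjusted p = 0.652 from edgeR). XPOT, which carries mature tRNAs out of the nucleus, had 54.9, 65.7 and 79.7 CPM in F0 and 54.1, 72.9 and 53.9 CPM in F2. Its libraries varied more within each population than between the populations (log2 ratio -0.15, 95% interval -0.38 to 0.087, adjusted p = 0.403 from edgeR), and the value was -0.30 (adjusted p = 0.033) without F2 replicate 2 and -0.0009 (adjusted p = 0.998) without F0 replicate 3. In both SLC7A5 and XPOT, F2 replicate 2 was the high library of its population.

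**Figure D4:**
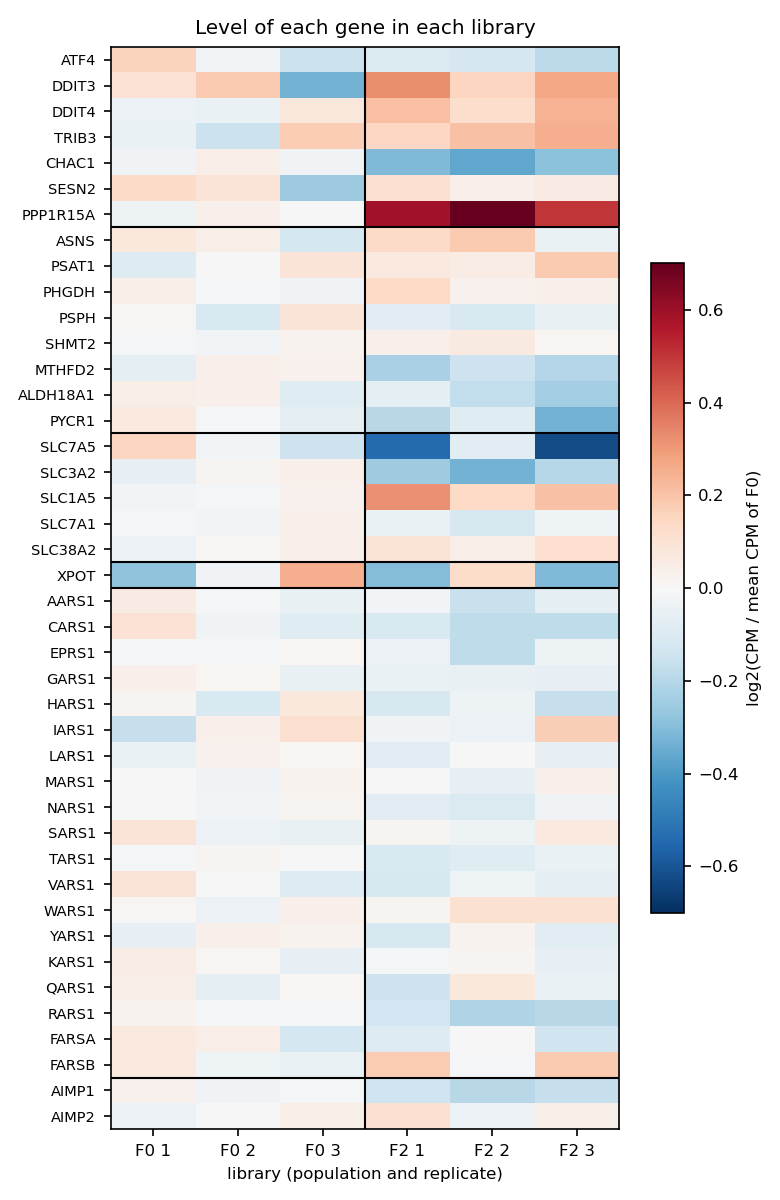
Log2 of CPM over the mean CPM of F0 (color, from -0.7 to 0.7) for each of the 42 genes (rows, with lines between the classes) in each DU145 library (columns). The synthetase rows are pale throughout, PPP1R15A stands out in all F2 libraries, and SLC7A5 and XPOT are uneven within both populations.

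Replicates were close for most of the 42 genes. The median coefficient of variation was 3.88% in F0 and 4.0% in F2, against 4.88% and 5.11% for the 8418 genes whose F0 mean was at least that of the lowest of the 42 genes. It was highest for XPOT in F0 (18.7%) and for SLC7A5 in F2 (21.6%). The summed level of the 42 genes was 7265 ± 45 CPM in F0 and 7017 ± 14.3 CPM in F2, a ratio of 0.966, and by class the ratio lay between 0.903 for XPOT alone and 0.991 for amino acid synthesis. In bulk RNA of this kind, fewer cells that express a gene and less RNA per cell cannot be told apart.

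Beyond the 42 genes, ATF4 has other targets, and of 20 such genes 17 were tested, with 1 called higher and 4 lower. The share called was 29.4%, against 18.2% of all tested genes, and the median log2 ratio was -0.040. SLC7A11, among the genes called lower here, was also counted with the other amino acid transporters above. CEBPB, a transcription factor that pairs with ATF4, fell from 90.5, 93.1 and 100 CPM to 71.4, 69.9 and 63.9 CPM, a log2 ratio of -0.47 (95% interval -0.59 to -0.35, adjusted p = 1.11e-05 from edgeR). The glycine transporter gene SLC6A9 fell by 0.35 and KLHL24, at under 5 CPM, fell by 0.64 on the log2 scale (adjusted p = 0.0274 and 0.0315), calls held in 3 and 2 of 6 fits with a library omitted and lost with DESeq2 (adjusted p = 0.0538 and 0.0825). ERO1A, an oxidase of the endoplasmic reticulum that hypoxia also induces, rose by 0.27 (adjusted p = 0.00127 from edgeR). ATF3, a stress factor downstream of ATF4, averaged 2.09 ± 0.599 CPM before and 2.14 ± 0.809 CPM after (log2 ratio 0.036, adjusted p = 0.953).

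Upstream, 21 genes of the eIF2 kinases, eIF2, its exchange factor eIF2B and its phosphatases were tested, with 1 called higher and 3 lower. The share called was 19%, against 18.2% of all tested genes, and the median was -0.014. EIF2AK4, which encodes GCN2, the kinase that senses uncharged tRNA, rose from 121 ± 3.46 to 134 ± 1.67 CPM (log2 ratio 0.16, adjusted p = 0.0269 from edgeR), a call held in 3 of 6 fits with a library omitted. GCN1, whose protein activates GCN2 on the ribosome, fell from 140 ± 3.64 to 119 ± 2.59 CPM (log2 ratio -0.23, adjusted p = 0.00177 from edgeR), called in all 6. OMA1, a mitochondrial protease that relays stress to eIF2, fell by 0.38 and PPP1CC, a phosphatase subunit that PPP1R15A can bind, fell by 0.14 on the log2 scale (adjusted p = 0.0379 and 0.048), calls held in 2 and 1 of 6 fits with a library omitted and lost with DESeq2 (adjusted p = 0.0864 and 0.0818). Of 13 other enzymes of serine, glycine and folate metabolism 3 rose and none fell (23.1% called, against 18.2% of all tested genes), with a median of 0.099. Among them were MAT2A, which makes S-adenosylmethionine (54.0 ± 4.96 to 70.3 ± 5.04 CPM, log2 ratio 0.38, adjusted p = 7.63e-04 from edgeR), and TYMS, which makes thymidylate (0.13, adjusted p = 0.0413, called in 2 of 6 fits with a library omitted). Of 11 tested enzymes of proline, glutamine and aspartate metabolism, 2 rose, PYCR3 among them, and PRODH, GOT1 and ASS1 fell. The share called was 45.5%, against 18.2% of all tested genes. The GOT1 call held in 2 of 6 such leave-one-out fits and was lost with DESeq2 (adjusted p = 0.0525). ASS1, which makes the precursor of arginine, fell from 5.62 ± 0.354 to 3.64 ± 0.867 CPM (log2 ratio -0.63, adjusted p = 0.0201 from edgeR, called in 4 of 6 fits with a library omitted).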

How the data were processed

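QuantSeq counts of 3 F0 and 3 F2 DU145 samples were used, and the rat PAIII table was not used here, since no table here pairs its identifiers with symbols. The authors deposited raw counts per gene. The submitters' processing notes name STAR 2.5.2a, HTSeq 0.6.0 and GRCh38, and the annotation and strand setting are not given in the sources used here. From 500 ng of RNA, reads of 101 bases were made. Lines that name no gene stayed out: reads outside genes were 9.81% (F0) and 11.6% (F2) and ambiguous reads 1.50% and 1.39% of uniquely placed reads, and reads with several alignments numbered 0.604 and 0.551 per gene count. Annotated pseudogenes exist for 16 of the 42 genes (among them ATF4, ASNS, PSAT1, MTHFD2, SLC7A5 and RARS1), whose counts are therefore uncertain, and exons of 20 overlap another gene. PCR duplicates remain. A gene's precision depends on its count and on the spread between libraries.

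Columns were matched to samples by population and replicate number. Symbols were matched for 56104 of 60107 identifiers, and positions are from GENCODE 29. Tests used R 4.3.3 with edgeR 4.0.16 (filterByExpr with minimum count 10 and total 15, TMM, quasi-likelihood F-test, no covariate, threshold 0.05) and DESeq2 1.42.0 as an alternative. Standard errors are the log2 fold change over the square root of F. All 42 genes are reported, and of each other list at most 4 called genes with the largest changes are named, while ATF3, GOT1, SLC7A6, EEF1E1 and MYADML2 were added after their values were seen. SLC7A11 is also named with the ATF4 targets because it is on that list too. The genes, classes and lists were chosen with earlier results of these data known, so lists carry no test. Alternatives were other scalings, filters, a replicate block, DESeq2, leaving out each library and leaving out mitochondrially encoded genes. Promoter motifs were not analysed here, and some genes of the other lists are not reported here. Replicates of a population differed by more than sampling noise.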

Additional observations from a re-analysis of the deposited data

How the results depend on the processing

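With library size alone in place of TMM, 21 of the 42 genes were called (1 higher, 20 lower), 11 of them synthetases, against 832 genes higher and 2805 lower overall. The medians were then 0.10 for stress factors, -0.11 for synthesis, -0.15 for transport, -0.15 for synthetases and -0.11 for the other pathway lists, and SESN2 (-0.019), PHGDH (-0.019), SHMT2 (-0.053), SLC38A2 (-0.0019), IARS1 (-0.050), SARS1 (-0.070), WARS1 (-0.012) and AIMP2 (-0.050) changed sign. The replicate block called 12 of the 42 genes, among them 4 stress factors and 2 synthetases, adding ATF4, DDIT4 and CARS1. Calls also rose over all 14316 tested genes, from 2599 to 2867 with the block. Same-numbered libraries of F0 and F2 correlated at 0.0559, -0.0174 and 0.059 for replicates 1, 2 and 3. The highest correlations of these F0 libraries with another number were 0.0215, 0.023 and -0.0066. Correlations this small cannot settle whether the numbers pair the samples. The cause of these shifts was not tested.

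Leaving out 1 library gave 1670 to 2621 called genes (909 to 1377 higher, 761 to 1244 lower), with the fewest without F0 replicate 2. Of the 42 genes 4 to 12 were called (1 to 4 higher, 3 to 8 lower), by class 2 to 5 stress factors, 0 to 2 of synthesis, 1 to 3 of transport and 0 to 2 synthetases, and 12 to 28 genes of the other pathway lists (30 with all libraries). Medians ranged from 0.11 to 0.20 for stress factors, -0.051 to 0.0029 for synthesis, -0.078 to -0.036 for transport, -0.059 to -0.042 for synthetases and -0.029 to -0.0074 for the pathway lists. The sign changed for SESN2 (-0.043 to 0.14), IARS1 (-0.034 to 0.098), MARS1 (-0.024 to 0.021), SARS1 (-0.0078 to 0.067), KARS1 (-0.047 to 0.0075) and QARS1 (-0.093 to 0.016). DESeq2 lost SLC7A5 and AIMP1, and AIMP1 was also lost without the filter on low counts (adjusted p = 0.0612). Leaving out mitochondrially encoded genes moved no count or median out of its range. Among the 42 genes the 95% interval of DDIT3 was the widest, from -0.015 to 0.52.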

Other observations

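Among genes of amino acid sensing by mTORC1, 16 of 18 were tested, with 2 higher and 2 lower in F2 (25.0% called, against 18.2% of all tested genes). CASTOR1, an arginine sensor that restrains mTORC1, had 4.37, 6.48 and 5.09 CPM in F0 and 2.37, 2.86 and 2.61 CPM in F2, with no overlap. Its log2 ratio of F2 to F0 was -1.02 (95% interval -1.43 to -0.61, adjusted p = 0.00101 from edgeR), called whichever library was omitted (6 of 6 fits). SESN3, of the family of the leucine sensor SESN2, fell by 0.38 on the log2 scale (adjusted p = 0.0239), while the Rag GTPase genes RRAGD and RRAGA, which recruit mTORC1 to lysosomes, rose by 0.39 and 0.20 (adjusted p = 0.00847 and 0.0297). The calls of SESN3, RRAGD and RRAGA held in 3, 6 and 2 of 6 such fits.

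In the ATF6 and XBP1 arms of the unfolded protein response, which run beside the ATF4 arm, 1 of 19 genes rose and 2 fell. The share called was 15.8%, against 18.2% of all tested genes. HSP90B1, a chaperone of the endoplasmic reticulum, had 625, 637 and 643 CPM in F0 and 537, 542 and 550 CPM in F2. Its log2 ratio was -0.23 (95% interval -0.31 to -0.14, adjusted p = 5.1e-04 from edgeR), called in 6 of 6 fits with a library omitted. HSPA5, known as BiP, fell by 0.15 (adjusted p = 0.0216) and DNAJC3, an inhibitor of eIF2 kinases, rose by 0.19 on the log2 scale (adjusted p = 0.0414), with 2 and 1 of 6 such fits past the threshold.

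Of 17 synthetase genes of the mitochondria, 2 rose and none fell (11.8% called, against 18.2% of all tested genes). Yet 13 of the 17 log2 ratios were below 0, and the median was -0.082. CARS2, for cysteine, rose from 19.8 ± 1.598 to 26.4 ± 1.88 CPM (SD, n = 3, log2 ratio 0.42, adjusted p = 0.00247 from edgeR), and MARS2, for methionine, rose from 6.14 ± 0.773 to 8.24 ± 0.462 CPM (0.42, adjusted p = 0.039). The CARS2 call held in 6 of 6 fits with a library omitted, and the MARS2 call held in 1 of 6 and was lost with DESeq2 (adjusted p = 0.0879). Of 17 genes of tRNA modification and charging, 2 rose and none fell (11.8% called, against 18.2% of all tested genes). ADAT2, a subunit of the tRNA adenosine deaminase, and TRMT6, a subunit of a tRNA methyltransferase, rose by 0.39 and 0.17 on the log2 scale (adjusted p = 0.0156 and 0.0287 from edgeR). They were called in 4 and 3 of 6 such fits.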
